A study of Homo sapiens with 30 samples.

Results

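The 10 genes described here, CAVIN2, ANKRD35, ZDHHC14, MAP7D2, ABTB3, SYT2, APLN, FAXDC2, RASD2 and CHRM4, were picked by name from the 60554 genes counted in each library. They were chosen among the largest rises with progestin, mostly from about 1 CPM (counts scaled to the library's size) or less in untreated cells, so their rises are given as a description and carry no test. RNA was sequenced from T47D, a human luminal breast cancer line that is rich in the progesterone receptor, at passages 18 to 20. The 12 RNA-seq libraries form 6 groups of 2.

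The siCEBPA groups are cells given a small interfering RNA against CEBPA, with progestin or untreated. The ICRF groups carry the label ICRF, with progestin or untreated. The siControl groups are cells given a control small interfering RNA, with progestin or untreated. The hormone was R5020, a synthetic progestin, at 10 nM. Cells of the siCEBPA and siControl groups went through an arrest of 4 h, and their progestin libraries have the time label T360 while their untreated libraries have T0, with no unit. Hormone and time label therefore cannot be told apart in those 8 libraries. The labels give the 4 ICRF libraries no small interfering RNA, arrest or time, and they do not explain the name; compounds so named are mostly inhibitors of topoisomerase II, and the series text speaks of inhibiting Topo2a. Anything else that separates these 4 libraries from the other 8 cannot be told apart from ICRF. The labels do not say whether the 2 libraries of a group came from separate cultures, so a p here speaks for the spread of these libraries alone, and that spread may be technical. The 18 ChIP-seq samples of the series were not analysed here.

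The progesterone receptor is a transcription factor of the nuclear receptor family. Once it has bound progestin it attaches to hormone response elements, inverted repeats in DNA, often far from the gene that responds. CEBPA encodes C/EBP alpha, a leucine zipper transcription factor known for driving differentiation and restraining division. Several of the 10 genes are best known from nerve cells or vessels: a vesicle calcium sensor, an acetylcholine receptor, a secreted vascular peptide and a Ras-like GTPase of the striatum.

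Promoter windows were available for 9 of the 10 genes (none for ANKRD35), 13 windows in all, from RefSeq on GRCh38.p14. Each holds 300 bases, 250 before an annotated transcript start and 50 after it, so the last 50 bases lie in a first exon. These 3 are shown because they hold the only motif matches and the extremes of CpG content among the 13. In the CAVIN2 window the capitals mark a match to ACANNNTGT, the core of a hormone response element. In the ABTB3 window they mark a match to the C/EBP motif TTGCNNAA, read here on the opposite strand. In the MAP7D2 window they mark every CpG. The windows are CAVIN2 chr2:191847039-191847338 on the minus strand, ABTB3 chr12:107318184-107318483 on the plus strand and MAP7D2 chrX:20116858-20117157 on the minus strand.
CAVIN2: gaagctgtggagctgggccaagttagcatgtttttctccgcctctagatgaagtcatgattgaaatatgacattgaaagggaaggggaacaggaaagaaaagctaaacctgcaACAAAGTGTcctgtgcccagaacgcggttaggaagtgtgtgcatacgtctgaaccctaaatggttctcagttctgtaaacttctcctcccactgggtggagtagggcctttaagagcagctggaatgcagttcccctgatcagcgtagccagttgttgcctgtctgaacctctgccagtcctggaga
ABTB3: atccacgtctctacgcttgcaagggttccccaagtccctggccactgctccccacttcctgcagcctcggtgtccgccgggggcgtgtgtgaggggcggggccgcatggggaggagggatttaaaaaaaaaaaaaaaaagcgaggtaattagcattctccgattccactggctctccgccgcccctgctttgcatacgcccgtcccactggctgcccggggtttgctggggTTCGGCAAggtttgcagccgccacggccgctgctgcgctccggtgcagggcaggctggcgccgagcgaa
MAP7D2: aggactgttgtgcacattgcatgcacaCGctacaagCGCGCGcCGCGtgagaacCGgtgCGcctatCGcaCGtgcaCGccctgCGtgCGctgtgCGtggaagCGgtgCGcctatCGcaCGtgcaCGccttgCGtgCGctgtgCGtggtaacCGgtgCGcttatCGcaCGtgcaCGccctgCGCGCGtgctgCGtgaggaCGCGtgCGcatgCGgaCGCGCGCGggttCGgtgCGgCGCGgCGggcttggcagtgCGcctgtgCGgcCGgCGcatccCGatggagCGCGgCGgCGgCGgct

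The CAVIN2 match begins 137 bases before the start and the ABTB3 match 19 bases before it. The core ACANNNTGT, searched on both strands like every motif here, was in 1 of the 13 windows of these genes and in 5.37% of 35116 RefSeq windows of the same length. The C/EBP motif was in 1 of 13 and in 10.5% of all windows. The full palindromic hormone response element, which fixes a further base on each side of the core, was in none of the 13 and in 0.39% of all windows. The single arm TGTTCT was in none of the 13 and in 14.8% of all, and the TATA box TATAAA in none of the 13 and in 11.5% of all. A match is a run of letters and not a measured site. The median window of these genes was 67.0% G or C with 24 CpG, against 58.67% and 14 CpG over all windows. Their range was wide, with 49.33% and 5 CpG for CAVIN2, up to 78.33% for CHRM4 and up to 54 CpG for MAP7D2. ABTB3, SYT2 and MAP7D2 gave more than 1 window each, so the 13 windows are not 13 separate genes, and those of MAP7D2 overlap. For FAXDC2, RASD2 and CHRM4 the nearest RefSeq start lies 8649, 8062 and 5168 bases from the start of the gene in the counted annotation, and in the case of CHRM4 that annotation holds a single exon of 1511 bases. The farthest window start of ABTB3 lies 262461 bases from its counted gene start, and that of SYT2 66964 bases.

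Library totals ran from 57364785 to 148624099 counted read pairs. The siControl untreated replicate 2 was the deepest, and the 4 ICRF libraries held 103156070 to 108066269. CEBPA itself stood at 57.5 and 61.7 CPM in siCEBPA progestin and 10.7 and 11.9 CPM in siCEBPA untreated libraries, against 203 and 201 CPM in siControl progestin and 48.1 and 55.7 CPM in siControl untreated libraries, so the siCEBPA libraries are lower at each hormone state. PGR, the receptor gene, averaged 381 CPM in siCEBPA progestin against 843 CPM in siCEBPA untreated libraries, 253 against 970 CPM with ICRF and 271 against 996 CPM with siControl. All 12 listed luminal markers were above 1 CPM in every group. Their summed level was lowest in the ICRF progestin libraries, 5933 and 5658 CPM, against 11938 and 11962 CPM in the ICRF untreated ones. Of 10 neuronal markers, MAP2 (42.6 to 97.5 CPM) and SYP (1.75 to 5.33 CPM) were the ones above 1 CPM in any group, while NEFL and INA were at 0 counts and SNAP25, RBFOX3, STMN2, NEFM, GAP43 and ELAVL4 had 1 to 8 counts over all 12 libraries. The summed neuronal level was 104 and 98.3 CPM in siCEBPA progestin libraries and 44.4 to 69.2 CPM in the other 10, nearly all of it MAP2. Among 10 endothelial markers, EGFL7 and ESAM passed 1 CPM. KDR reached 0.942 CPM in ICRF progestin and VWF 0.671 CPM in siCEBPA progestin libraries, and PECAM1, CDH5, TEK, CLDN5, EMCN and ERG stayed at or under 0.0557 CPM. Fibroblast markers summed to 29.8 to 73.2 CPM, mostly COL1A1, and blood markers to 0.597 to 1.28 CPM, with none of the 6 above 1 CPM. The part of these other markers in the results was not tested.

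In every untreated group 8 of the 10 genes averaged at most 1 CPM, and in no progestin group did any. The exceptions untreated were RASD2 (2.39 CPM) and CHRM4 (1.08 CPM) with siControl, the same pair with siCEBPA (1.37 and 1.14 CPM), and ZDHHC14 (1.79 CPM) and CHRM4 (2.29 CPM) with ICRF. The wording near-silent thus holds less well for RASD2, CHRM4 and, with ICRF, ZDHHC14. All 10 passed the filter on low counts, with 1 to 361 counts per gene in an untreated library and 100 to 1912 in a progestin library. Some, such as SYT2, passed it only through the libraries in which they are high. In bulk RNA a larger share of cells that express a gene cannot be told apart from more RNA per cell. On a scale per length, the highest level in siCEBPA progestin libraries was that of CHRM4, 10.5 CPM per kb of exon, and the lowest that of FAXDC2, 0.725. In siControl untreated libraries the highest was again CHRM4, 0.717 CPM per kb, and the lowest SYT2, 0.00542.

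**Figure D1:**
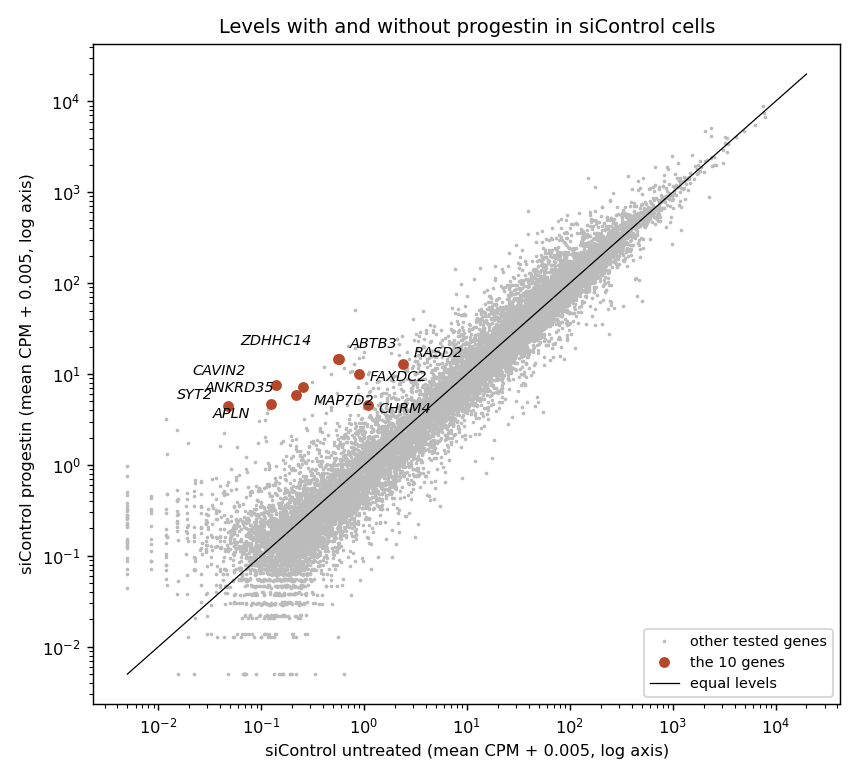
Mean level of each tested gene in siControl progestin libraries (vertical axis) against siControl untreated libraries (horizontal axis), both in CPM plus 0.005 on log axes, n = 2 libraries each. The 10 genes (red) lie far above the line of equal levels, from SYT2 at 0.0421 CPM untreated to RASD2 at 2.39 CPM untreated.

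The signalling genes come first. APLN (chrX:129645259-129654937, minus strand, hg38) encodes apelin, a secreted peptide that signals through the receptor APLNR. With siCEBPA, APLN had 8.70 and 8.92 CPM under progestin, against 0.162 and 0.125 CPM untreated. For APLN under ICRF, the progestin libraries had 2.34 and 2.40 CPM, against 0.0679 and 0.253 CPM in the untreated ones. With siControl, APLN had 5.17 and 4.30 CPM under progestin, against 0.130 and 0.109 CPM untreated. The progestin levels fall in the order siCEBPA, siControl, ICRF with no overlap between libraries, whereas the 3 untreated groups overlap. The log2 change was 5.91 ± 0.21 with siCEBPA, 3.87 ± 0.29 with ICRF and 5.37 ± 0.21 with siControl (standard error here and below). The ICRF value rests on its untreated libraries, being 3.22 without replicate 1 of them and 5.10 without replicate 2.

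CHRM4 (chr11:46385098-46386608, minus strand) encodes a muscarinic acetylcholine receptor that couples to inhibitory G proteins. With siCEBPA, CHRM4 had 15.5 and 16.2 CPM under progestin, against 0.852 and 1.42 CPM untreated. For CHRM4 under ICRF, the progestin libraries had 6.31 and 5.84 CPM, against 2.04 and 2.54 CPM in the untreated ones. With siControl, CHRM4 had 4.33 and 4.71 CPM under progestin, against 1.19 and 0.980 CPM untreated. Here the ICRF libraries were above the siControl ones at both hormone states, and the siCEBPA and siControl untreated libraries overlapped. The log2 changes were 3.80 ± 0.16 (siCEBPA), 1.41 ± 0.12 (ICRF) and 2.13 ± 0.17 (siControl), the last the smallest of the 10 in siControl cells.

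RASD2 (chr22:35540868-35554001, plus strand) encodes Rhes, a Ras-like GTPase best known from the striatum. With siCEBPA, RASD2 had 25.2 and 25.05 CPM under progestin, against 1.53 and 1.20 CPM untreated. For RASD2 under ICRF, the progestin libraries had 1.48 and 1.69 CPM, against 0.863 and 0.945 CPM in the untreated ones. With siControl, RASD2 had 13.2 and 12.4 CPM under progestin, against 2.33 and 2.46 CPM untreated. Its ICRF progestin level overlapped the untreated level of siCEBPA cells and lay under that of untreated siControl cells. The log2 changes were 4.19 ± 0.11 (siCEBPA), 0.81 ± 0.20 (ICRF) and 2.45 ± 0.10 (siControl), and the ICRF change ranked 2042 of 18556 tested genes, the lowest rank of any of the 10.

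Then come the genes of membranes and vesicles. SYT2 (chr1:202590596-202710417, minus strand) encodes a synaptotagmin, a calcium sensor for vesicle fusion at synapses. With siCEBPA, SYT2 had 11.5 and 10.6 CPM under progestin, against 0.0588 and 0.0781 CPM untreated. For SYT2 under ICRF, the progestin libraries had 1.06 and 0.961 CPM, against 0.0291 and 0.00935 CPM in the untreated ones. With siControl, SYT2 had 4.39 and 4.55 CPM under progestin, against 0.0434 and 0.0408 CPM untreated. The untreated values stand on very few read pairs, 4 and 5 with siCEBPA, 3 and 1 with ICRF and 3 and 6 with siControl. SYT2 had the largest log2 change of the 10 in each condition, 7.30 ± 0.21 with siCEBPA, 5.65 ± 0.49 with ICRF and 6.73 ± 0.23 with siControl. As a ratio of counts scaled for depth, the ICRF change was 53.3, with an exact 95% interval of 20.5 to 197 that covers counting error only. Its log2 change is 6.59 without replicate 1 of the untreated ICRF libraries and 5.06 without replicate 2.

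CAVIN2 (chr2:191834302-191847255, minus strand) encodes a protein of the coat of caveolae, the small invaginations of the plasma membrane. With siCEBPA, CAVIN2 had 4.90 and 4.72 CPM under progestin, against 0.0735 and 0.0781 CPM untreated. For CAVIN2 under ICRF, the progestin libraries had 2.07 and 2.58 CPM, against 0.0873 and 0.140 CPM in the untreated ones. With siControl, CAVIN2 had 6.92 and 8.07 CPM under progestin, against 0.116 and 0.150 CPM untreated. Its progestin level was highest in siControl cells, unlike that of APLN, and its untreated siControl and ICRF libraries overlapped. For CAVIN2 the log2 changes were 5.95 ± 0.25 (siCEBPA), 4.34 ± 0.28 (ICRF) and 5.78 ± 0.19 (siControl).

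ZDHHC14 (chr6:157381133-157678146, plus strand) encodes an enzyme of the DHHC family, which attaches palmitate to proteins. With siCEBPA, ZDHHC14 had 22.1 and 23.9 CPM under progestin, against 0.544 and 0.453 CPM untreated. For ZDHHC14 under ICRF, the progestin libraries had 8.93 and 8.97 CPM, against 1.59 and 1.98 CPM in the untreated ones. With siControl, ZDHHC14 had 14.4 and 14.7 CPM under progestin, against 0.651 and 0.456 CPM untreated. The ICRF libraries were thus lowest with progestin and highest without it, with no overlap in either state. On the log2 scale ZDHHC14 changed by 5.51 ± 0.14 (siCEBPA), 2.32 ± 0.12 (ICRF) and 4.83 ± 0.13 (siControl).

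FAXDC2 (chr5:154818491-154859252, minus strand) belongs to the fatty acid hydroxylase superfamily, which also holds enzymes of sterol synthesis. With siCEBPA, FAXDC2 had 5.19 and 5.28 CPM under progestin, against 0.0735 and 0.187 CPM untreated. For FAXDC2 under ICRF, the progestin libraries had 4.87 and 5.23 CPM, against 0.126 and 0.234 CPM in the untreated ones. With siControl, FAXDC2 had 10.3 and 9.59 CPM under progestin, against 0.723 and 1.06 CPM untreated. The siControl libraries were highest at both hormone states, and the siCEBPA and ICRF libraries overlapped at both. FAXDC2 thus changed in log2 by 5.32 ± 0.26 (siCEBPA), 4.79 ± 0.21 (ICRF) and 3.45 ± 0.16 (siControl). The siCEBPA value is 6.14 without replicate 2 of its untreated libraries and 4.79 without replicate 1.

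MAP7D2 (chrX:20006713-20116917, minus strand) encodes a microtubule-binding protein of the MAP7 family. With siCEBPA, MAP7D2 had 10.6 and 10.8 CPM under progestin, against 0.235 and 0.156 CPM untreated. For MAP7D2 under ICRF, the progestin libraries had 2.61 and 3.13 CPM, against 0.204 and 0.0842 CPM in the untreated ones. With siControl, MAP7D2 had 7.54 and 6.86 CPM under progestin, against 0.203 and 0.299 CPM untreated. As for APLN, the progestin order was siCEBPA, siControl, ICRF and the untreated groups overlapped. The MAP7D2 changes in log2 were 5.74 ± 0.19 (siCEBPA), 4.32 ± 0.26 (ICRF) and 4.79 ± 0.17 (siControl), and the ICRF value is 5.07 without replicate 1 of its untreated libraries.

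ABTB3 (chr12:107318413-107659642, plus strand) encodes a protein with ankyrin repeats and a BTB domain. With siCEBPA, ABTB3 had 17.4 and 19.1 CPM under progestin, against 0.544 and 0.609 CPM untreated. For ABTB3 under ICRF, the progestin libraries had 17.7 and 15.1 CPM, against 1.13 and 0.664 CPM in the untreated ones. With siControl, ABTB3 had 15.0 and 14.6 CPM under progestin, against 0.550 and 0.592 CPM untreated. Its 3 progestin means lay between 14.8 and 18.3 CPM, and its siCEBPA and ICRF progestin libraries overlapped. The log2 changes were 4.98 ± 0.13 (siCEBPA), 4.19 ± 0.15 (ICRF) and 4.71 ± 0.12 (siControl).

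ANKRD35 (chr1:145866560-145885866, minus strand) encodes another ankyrin repeat protein. With siCEBPA, ANKRD35 had 11.9 and 10.5 CPM under progestin, against 0.367 and 0.344 CPM untreated. For ANKRD35 under ICRF, the progestin libraries had 3.22 and 3.28 CPM, against 0.349 and 0.215 CPM in the untreated ones. With siControl, ANKRD35 had 6.17 and 5.52 CPM under progestin, against 0.217 and 0.204 CPM untreated. Its progestin levels kept the order siCEBPA, siControl, ICRF without overlap. The log2 changes were 4.96 ± 0.16 (siCEBPA), 3.53 ± 0.21 (ICRF) and 4.84 ± 0.17 (siControl).

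**Figure D2:**
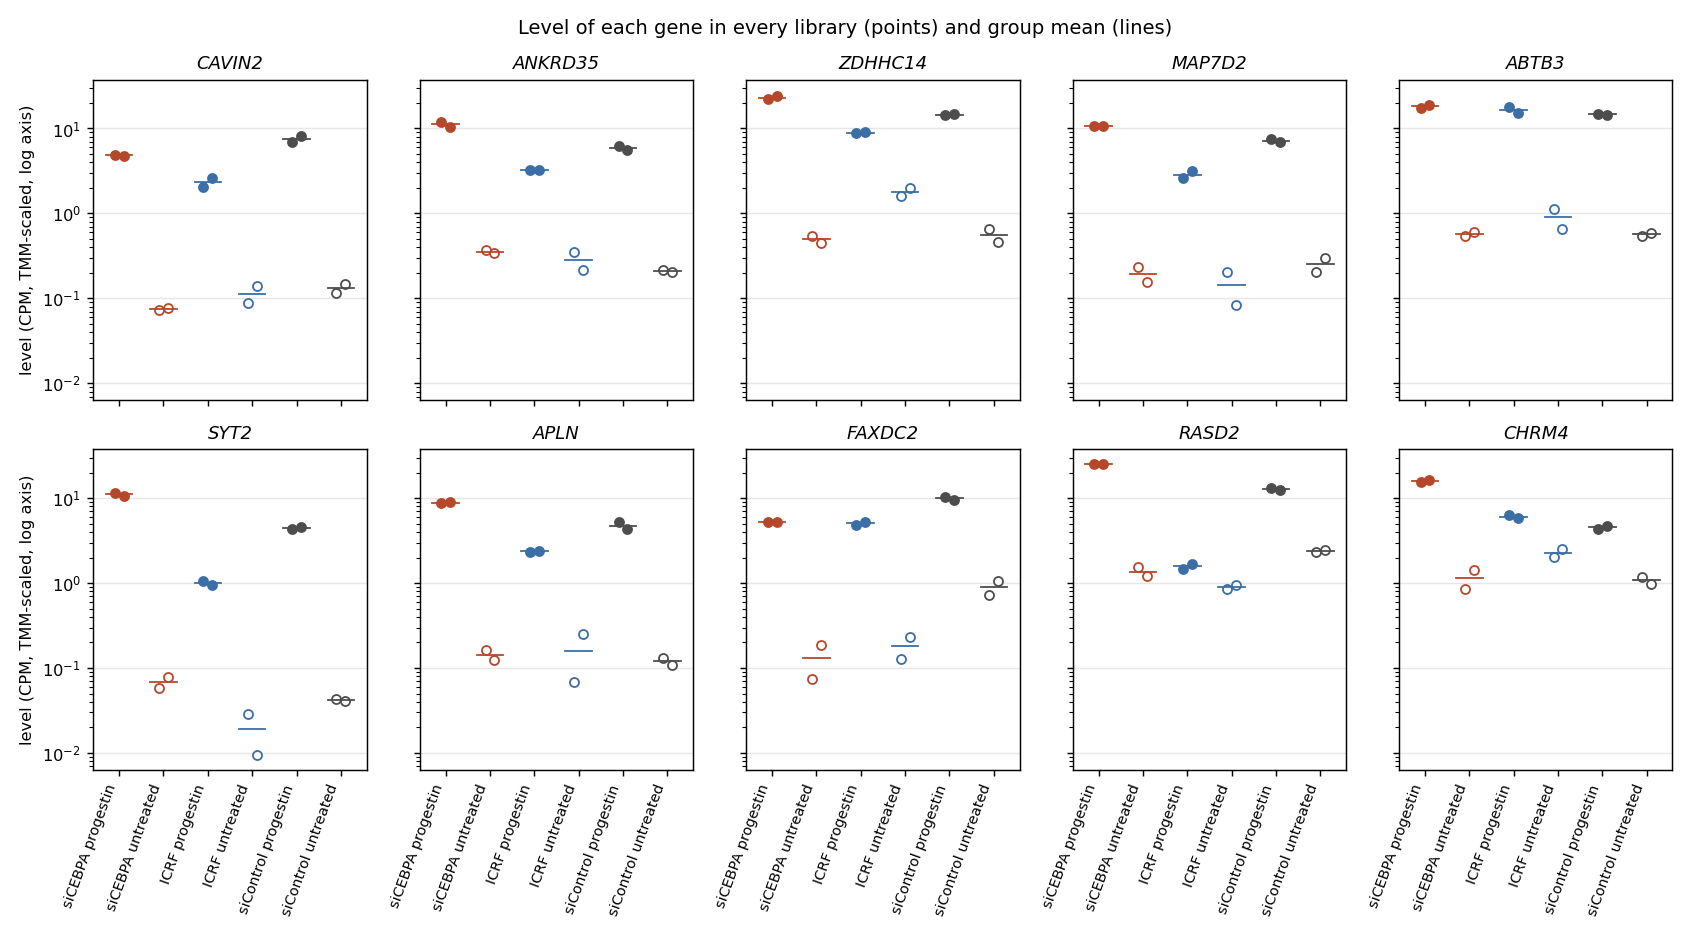
Level in CPM (log axis) of each gene in each of the 12 libraries; points are libraries (filled with progestin, open untreated), lines are the means of the 2 libraries of a group, and colours mark siCEBPA, ICRF and siControl. In every panel and condition both progestin points lie above both untreated points, with the narrowest gap for RASD2 under ICRF (1.48 and 1.69 CPM against 0.863 and 0.945 CPM).

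Among all tested genes, the 10 rises ranked 26 to 148 of 18351 with siCEBPA, 56 to 2042 of 18556 with ICRF and 23 to 444 of 18351 with siControl, counted from the largest rise. Their median log2 change was 5.42, 4.03 and 4.81 in those conditions, beside -0.03, -0.01 and -0.03 over all tested genes, as the choice of the genes fixes. The siCEBPA and siControl changes come from separate libraries, but each of them may have entered the choice. The genes just outside show that the 10 do not exhaust the pattern. Of 5100 tested genes at or under 1 CPM in siControl untreated libraries, 320 reached 1 CPM or more with progestin, 273 of them with a symbol, and 8 of the 10 genes are among these. In that pool, 35 other genes rose at least as much as FAXDC2, the smallest rise among the 8. Among the genes of that pool with a symbol, the largest rises outside the 10 were those of PRPH2 (log2 8.24 ± 0.42), PHACTR3 (7.75 ± 0.49), MOGAT2 (7.32 ± 0.49), SCRG1 (7.31 ± 0.38) and ZBTB7C (6.43 ± 0.13). Just inside, the smallest rises in siControl cells were those of FAXDC2, RASD2 and CHRM4, given above.

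Over the 12 libraries the 10 genes varied together. The 45 pairs had Pearson r of log2(CPM + 0.5) between 0.69 (ABTB3 and RASD2) and 0.995 (ANKRD35 and APLN), with a median of 0.929. The points share the hormone step that chose the genes, so r is a description of likeness. By the same measure over 16944 genes, ANKRD35 and APLN were most like the same 2 genes, CDKN1C (r = 0.996 with each), a cell cycle inhibitor, and ZBTB7C (r = 0.995 with each). CDKN1C averaged 8.13 CPM in siCEBPA progestin against 0.0983 CPM in siCEBPA untreated libraries, 2.47 against 0.105 CPM with ICRF and 4.11 against 0.111 CPM with siControl. The nearest genes to MAP7D2 were KLF13 (r = 0.997) and PALMD (0.996), those to CAVIN2 were PPARD and TP53BP2 (0.995 each), and those to ZDHHC14 were ARHGAP17 and GOLIM4 (0.995 each). SYT2 was most like MFSD2B (0.993) and KRT89P (0.991), and ABTB3 most like IL20RA (0.994) and SCRG1 (0.993). FAXDC2 was closest to PER1 (0.993), a clock gene, and YPEL2 (0.992), whose siControl levels were likewise above the siCEBPA ones. YPEL2 had 46.7 CPM in siCEBPA progestin against 62.7 CPM in siControl progestin libraries, and 10.1 CPM in siCEBPA untreated against 17.2 CPM in siControl untreated ones. RASD2 was closest to SEPTIN5 (0.995) and ZMYM4 (0.989). CHRM4 had the least close partners, MINDY2-DT (0.983) and CHST10 (0.977).

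The knockdown of CEBPA asks whether these genes depend on that factor, a contrast that the rule did not name. In untreated cells, 3 of the 10 passed edgeR's quasi-likelihood test at an adjusted p under 0.05, beside 46.6% of all 18351 tested genes. The rule did use low untreated levels. Genes such as SYT2, with 3 to 6 counts in each of these libraries, were tested only because of their progestin libraries. The count and p-values are therefore not independent of the choice, and nothing is read from the share of genes called. FAXDC2 was lower with siCEBPA, by a log2 difference of -2.80 ± 0.33 (edgeR, adjusted p = 3.8e-06), and its siCEBPA libraries (0.0735 and 0.187 CPM) lay well under the siControl ones (0.723 and 1.06 CPM). That difference rests on 5 and 12 counts in the siCEBPA untreated libraries, and is -3.61 without replicate 2 of them and -2.26 without replicate 1. RASD2 was also lower, by -0.77 ± 0.13 (edgeR, adjusted p = 0.00013). ANKRD35 was higher, 0.81 ± 0.28 (edgeR, adjusted p = 0.026), a call that is lost without either siCEBPA untreated library (adjusted p = 0.12 without replicate 1 and 0.079 without replicate 2) or without siControl untreated replicate 2 (adjusted p = 0.16). The median difference of the 10 was 0.01, beside 0.01 over all tested genes. For the 7 others the 95% intervals varied in width: that of ABTB3 ran from -0.33 to 0.41, that of ZDHHC14 from -0.46 to 0.41, that of CAVIN2 from -1.69 to 0.07 and that of SYT2 from -0.37 to 1.83.

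With progestin, all 10 genes differed between siCEBPA and siControl cells, beside 44.6% of all tested genes. The progestin libraries took part in the choice of the genes. The counts, median and p-values given here are therefore not independent of the choice. Higher with siCEBPA were 8 of the 10, beside 22.5% of all tested genes, and lower were 2 of the 10, beside 22.1%. The receptor gene CHRM4 differed most, with 15.5 and 16.2 CPM in siCEBPA progestin against 4.33 and 4.71 CPM in siControl progestin libraries, a log2 difference of 1.81 ± 0.14 (edgeR, adjusted p = 5.8e-08). SYT2 followed at 1.303 ± 0.11 (adjusted p = 1.3e-07), then RASD2 at 0.97 ± 0.08, ANKRD35 at 0.93 ± 0.11 and APLN at 0.89 ± 0.12. ZDHHC14 (0.66 ± 0.09), MAP7D2 (0.57 ± 0.11) and ABTB3 (0.31 ± 0.08) differed less. ABTB3 misses the threshold without siCEBPA progestin replicate 2 (edgeR, adjusted p = 0.090), without siControl progestin replicate 1 (0.052) or without siControl progestin replicate 2 (0.070). The 2 lower genes were FAXDC2, at -0.93 ± 0.14 (edgeR, adjusted p = 4.9e-05), and CAVIN2, at -0.64 ± 0.12 (adjusted p = 0.00056). The median of the 10 was 0.77, beside 0.02 over all tested genes. Without scaling factors the median gene shifts to 0.11 and 64.9% of all called genes are higher, in place of 50.5%, and untreated it shifts to 0.10 with 65.3% in place of 48.5%; each of the 10 genes that was called kept its direction.

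**Figure D3:**
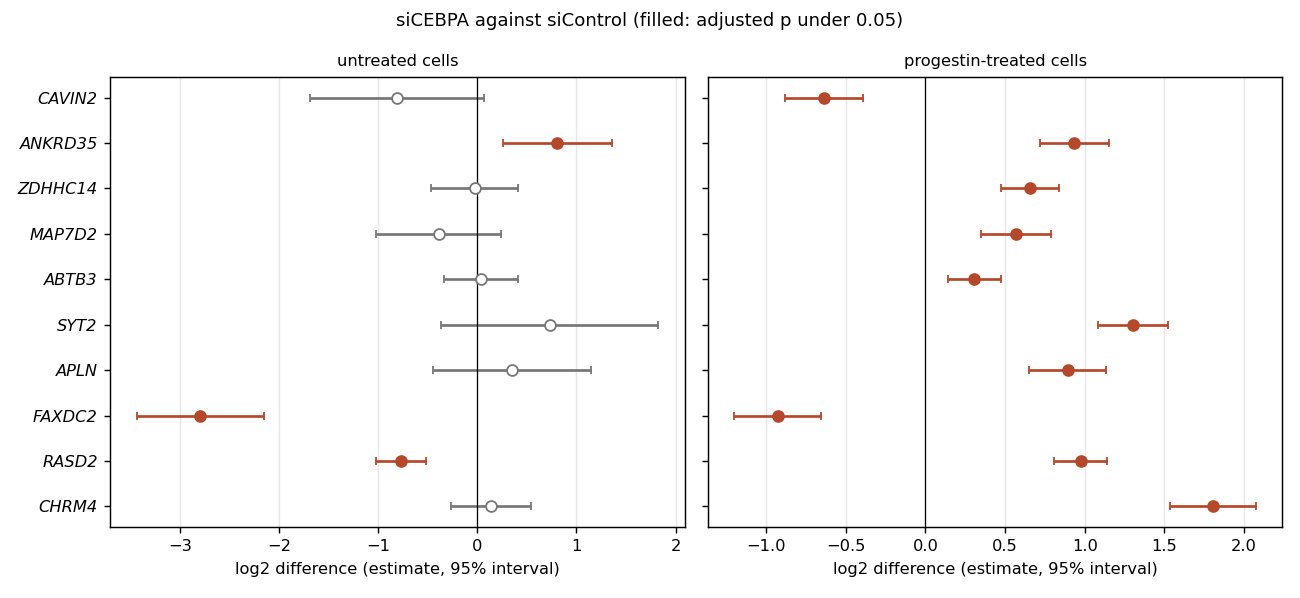
Log2 difference of siCEBPA over siControl for each gene in untreated cells (left) and in progestin-treated cells (right), n = 2 libraries per group; points are edgeR estimates, bars are 95% intervals, and filled points passed an adjusted p under 0.05. FAXDC2 stands apart at -2.80 on the left, and on the right 8 genes lie above 0, up to CHRM4 at 1.81.

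The difference between the responses, siCEBPA minus siControl, shows whether the rise itself was larger with the knockdown. It was called for 3 of the 10, all larger with siCEBPA, beside 7.24% of all tested genes, 4.19% called larger and 3.06% smaller. It is made of the progestin rises for which the genes were chosen, so the count and p-values are not independent of the choice. For RASD2 the responses differed by 1.74 ± 0.15 on the log2 scale (edgeR, adjusted p = 4.2e-06), with an 18.3-fold rise in siCEBPA cells and a 5.45-fold rise in siControl cells. For FAXDC2 they differed by 1.87 ± 0.38 (edgeR, adjusted p = 0.0059), which came with its low untreated level in siCEBPA cells, and the value is 1.33 with an adjusted p of 0.086 without siCEBPA untreated replicate 1 and 2.68 without replicate 2. For CHRM4 they differed by 1.67 ± 0.25 (edgeR, adjusted p = 0.00057), and here the progestin level was higher with siCEBPA while the untreated levels overlapped. RASD2 was lower untreated and higher with progestin in siCEBPA than in siControl cells, so both ends moved. All 10 estimates were above 0, with a median of 0.63 beside 0.02 over all tested genes. ZDHHC14 (0.68, 95% interval 0.22 to 1.15, adjusted p = 0.11) and MAP7D2 (0.96, interval 0.30 to 1.62, adjusted p = 0.11) missed the adjusted threshold in edgeR, and ZDHHC14 passes it without siControl untreated replicate 2 (1.01, adjusted p = 0.032). CAVIN2 (0.17, interval -0.71 to 1.06) and ANKRD35 (0.13, interval -0.49 to 0.74) were nearest to 0.

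Under ICRF the responses were compared with those of siControl cells in a fit of all 12 libraries. They differed for 7 of the 10 genes, beside 48.9% of 19003 tested genes: 6 were smaller with ICRF, beside 24.0% of all, and 1 larger, beside 24.9%. Both responses are progestin rises, for which the genes were chosen, so these counts and p-values are not independent of the choice. ZDHHC14 differed most, by -2.51 ± 0.19 (edgeR, adjusted p = 8.0e-10), with log2 rises of 2.32 under ICRF and 4.83 in siControl cells. RASD2 followed at -1.63 ± 0.18 (edgeR, adjusted p = 1.1e-07), with a 1.75-fold rise under ICRF. APLN (-1.51 ± 0.49, edgeR adjusted p = 0.015) rests on its untreated libraries: it is -0.27 with an adjusted p of 0.78 without ICRF untreated replicate 2, -2.14 without replicate 1, and -1.33 with an adjusted p of 0.097 without siControl untreated replicate 2. CAVIN2 (-1.45 ± 0.43, edgeR adjusted p = 0.0085) loses the call without ICRF untreated replicate 2 (-1.07, adjusted p = 0.16). ANKRD35 (-1.31 ± 0.31, edgeR adjusted p = 0.0015) loses it narrowly without ICRF untreated replicate 1 (-0.92, adjusted p = 0.053). CHRM4 (-0.72 ± 0.22, edgeR adjusted p = 0.011) loses it without ICRF untreated replicate 2 (-0.55, adjusted p = 0.076) or without siControl untreated replicate 2 (-0.54, adjusted p = 0.11). FAXDC2 alone was larger with ICRF, by 1.35 ± 0.32 (edgeR, adjusted p = 0.0013). The vesicle sensor SYT2 (-1.10, interval -2.79 to 0.59) was not resolved at its few untreated counts. MAP7D2 (-0.47, interval -1.26 to 0.32) and ABTB3 (-0.52, interval -0.999 to -0.031, adjusted p = 0.096) did not pass in edgeR. ABTB3 passes with DESeq2 (adjusted p = 0.044), without ICRF progestin replicate 1 (-0.67, adjusted p = 0.035) and without ICRF untreated replicate 2 (-0.86, adjusted p = 0.0030). This comparison and the one before share the siControl libraries, in which FAXDC2 had its smallest rise of the 3 conditions. The median of the 10 was -1.21, beside 0.02 over all tested genes. Without scaling factors the median gene shifts to 0.17 and 65.2% of all called genes are larger with ICRF, in place of 50.9%, while the 7 calls keep their direction.

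**Figure D4:**
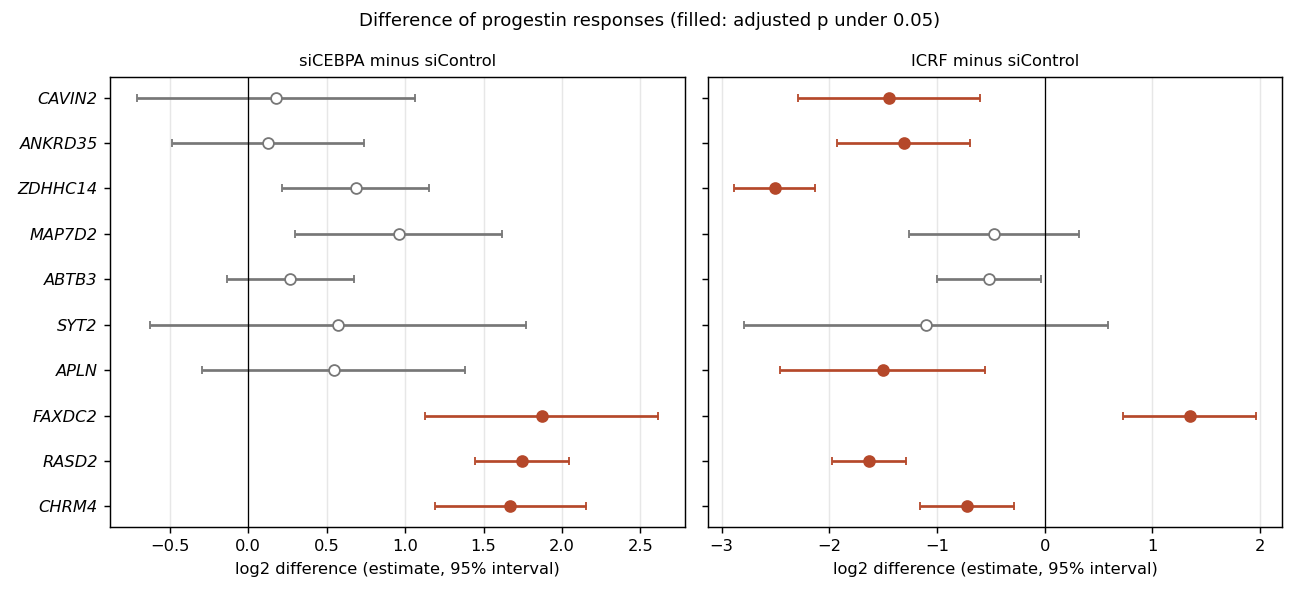
Difference of the log2 progestin responses for each gene, siCEBPA minus siControl (left) and ICRF minus siControl (right), n = 2 libraries per group; points are edgeR estimates, bars are 95% intervals, and filled points passed an adjusted p under 0.05. FAXDC2 is called above 0 in both panels, and RASD2 and CHRM4 above 0 on the left and below 0 on the right.

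Relatives of the 10 genes, 83 listed by family and 62 of them tested, show how far the rises extend to their families. In siCEBPA cells 26 of the 62 rose and 19 fell with progestin, beside 29.9% and 28.4% of all tested genes (58.2% in either direction). With ICRF 28 of 61 rose and 19 fell, beside 31.3% and 30.0% (61.4% either way), and in siControl cells 21 of 62 rose and 14 fell, beside 29.2% and 29.3% (58.5% either way). The median relative changed by -0.01 in siControl cells. These splits depend on scaling: the siCEBPA count is 22 rising and 24 falling with upper quartile scaling or with none, the ICRF count 22 and 20 with upper quartile scaling, and the siControl count 19 and 24 with upper quartile scaling and 18 and 28 with none. Over all called genes, the share higher with progestin in siCEBPA cells is 51.3% with TMM, 36.9% with upper quartile scaling, where the median gene shifts to -0.16, and 33.3% with none, where it shifts to -0.19. In siControl cells that share is 49.97% with TMM, 38.2% with upper quartile scaling (median -0.15) and 33.9% with none (median -0.19). No relative called under both scalings changed direction.

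Of 10 listed caveola relatives of CAVIN2, 5 were tested, and all 5 rose in siControl cells, beside 29.2% of all tested genes. PACSIN2, a membrane-bending protein, rose by 1.41 ± 0.05 (edgeR, adjusted p = 2.6e-13). CAVIN1 rose by 0.58, EHD4 by 0.38, EHD2 by 0.31 and PACSIN3 by 0.29. CAV1, CAV2, CAV3, CAVIN3 and CAVIN4 did not pass the filter on low counts. CAV1 averaged 0.0080 CPM in siControl progestin against 0.0102 CPM in siControl untreated libraries, and CAV2, CAV3 and CAVIN3 were at 0 in both. With ICRF 2 of the 5 rose and 2 fell, beside 31.3% and 30.0% of all, and EHD2 (-0.91 ± 0.07) and PACSIN3 (-0.94 ± 0.04) were the ones that fell. PACSIN2 averaged 80.3 CPM in ICRF progestin against 84.8 CPM in ICRF untreated libraries, where its change was -0.08 with an adjusted p of 0.090. Of 19 tested palmitoyltransferases related to ZDHHC14, 4 rose, 2 fell and 13 were not called in siControl cells, beside 29.2% rising and 29.3% falling of all. In siCEBPA cells 6 of the 19 rose and 6 fell, beside 29.9% and 28.4%. With ICRF 9 of 18 rose and 3 fell, beside 31.3% and 30.0%. ZDHHC7 changed most among those called in siControl cells, 1.09 ± 0.04 (edgeR, adjusted p = 3.5e-12). MAP7D1, a close relative of MAP7D2, rose by 0.98 ± 0.06 in siCEBPA cells, fell by 0.39 with ICRF (edgeR, adjusted p = 9.1e-09) and rose by 1.20 ± 0.06 in siControl cells. ABTB2, the paralog of ABTB3, rose to 96.3 CPM in siCEBPA progestin against 23.9 CPM in siCEBPA untreated libraries and to 91.6 CPM in siControl progestin against 23.4 CPM in siControl untreated ones (log2 2.00 ± 0.06 in each, edgeR). With ICRF, ABTB2 rose by 0.42 ± 0.06.

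Of 10 tested synaptotagmins, 2 rose and 2 fell in siControl cells, beside 29.2% rising and 29.3% falling of all tested genes. In siCEBPA cells 4 of 10 rose and 3 fell, beside 29.9% and 28.4%. With ICRF 1 of 11 rose and 8 fell, beside 31.3% and 30.0%. SYT1, the closest relative of SYT2 in sequence and role, fell by 1.14 on the log2 scale in siControl cells (edgeR, adjusted p = 2.9e-05). It had 5.38 CPM in siControl progestin against 12.1 CPM in siControl untreated libraries. SYT11 rose by 1.58 ± 0.33 in siControl cells, to 0.640 CPM with progestin against 0.229 CPM untreated. With ICRF, SYT11 rose by 4.56 ± 0.31, to 1.94 CPM with progestin against 0.0812 CPM untreated. The small GTPases near RASD2 moved both ways in siControl cells, 4 up and 3 down of 10, beside 29.2% and 29.3% of all tested genes. RASD1, the nearest paralog of RASD2, changed by 3.92 but stayed under 1 CPM, and RASL10B rose by 2.43 ± 0.09, to 19.8 CPM in siControl progestin against 3.79 CPM in siControl untreated libraries. RERG, a GTPase named for its regulation by oestrogen, fell by 1.86, and RASL11B rose by 0.40 with ICRF (edgeR, adjusted p = 0.0025) yet fell by 2.08 in siControl cells. The muscarinic relatives CHRM1 (-0.82) and CHRM3 (-0.75) fell in siControl cells, and both fell in siCEBPA cells (-0.33 and -0.84). With ICRF, CHRM1 fell by 2.46 and CHRM3 rose by 0.27 (edgeR, adjusted p = 0.023). Of 4 tested sterol and fatty acid hydroxylases, MSMO1 rose by 0.75 and SC5D fell by 0.27 in siControl cells, beside 29.2% and 29.3% of all. In siCEBPA cells 1 rose and 2 fell, beside 29.9% and 28.4%. With ICRF all 4 rose, beside 31.3% of all: MSMO1 by 0.16, SC5D by 0.35, FA2H by 0.62 and AGMO by 1.37. AGMO had only 0.296 CPM in ICRF progestin libraries. The apelin receptor gene APLNR did not pass the filter on low counts, and APELA, the other ligand of that receptor, fell in siCEBPA cells (-2.80 ± 0.78, edgeR, adjusted p = 0.0060) at 0.0377 CPM with progestin against 0.273 CPM untreated, and was not called in siControl cells.

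**Figure D5:**
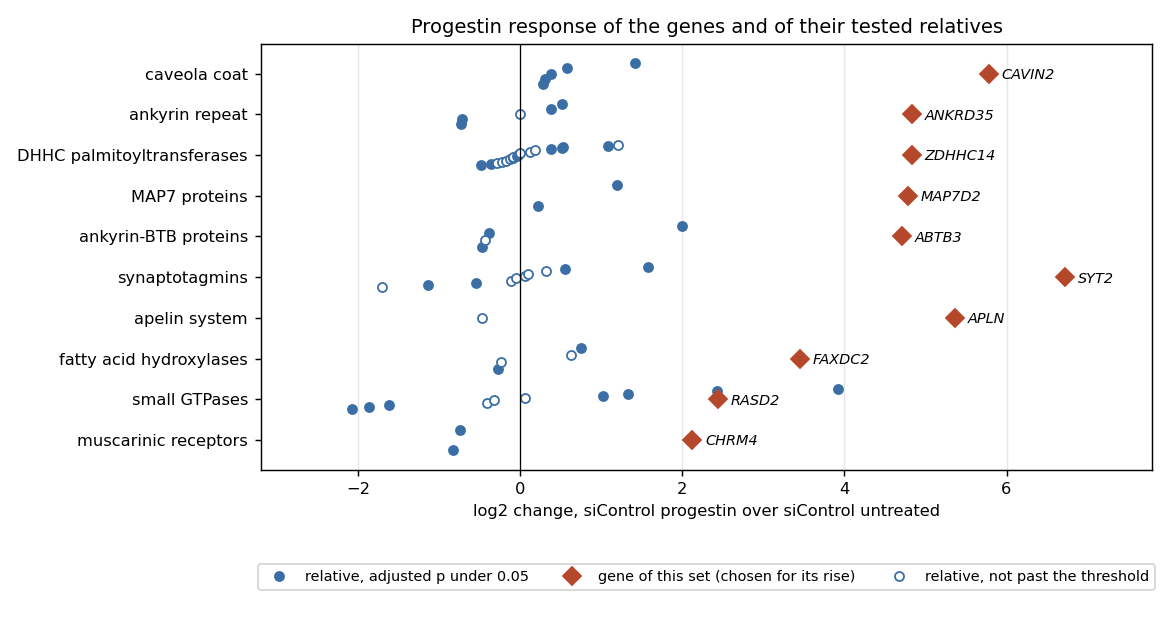
Log2 change in siControl progestin over siControl untreated libraries (horizontal axis, TMM scaling, n = 2 each) for the 10 genes (red diamonds, chosen for their rise) and the 62 tested relatives by family (circles, filled where the adjusted p was under 0.05). The relatives centre on -0.01, and the small GTPases spread from -2.08 (RASL11B) to 3.92 (RASD1).

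Genes within 50 kb of the 10 were counted too, 35 with a symbol and 22 of them tested. In siControl cells 12 of the 22 rose and 4 fell with progestin, beside 29.2% and 29.3% of all tested genes. The counts are 11 and 7 with upper quartile scaling and 9 and 7 with no scaling factors. With TMM, 1 called neighbour in each direction changed by 2-fold or more. These were CNOT8, a subunit of the deadenylase complex, at 1.27 ± 0.05 (edgeR, adjusted p = 2.8e-12), and LIX1L-AS1, at -1.49 ± 0.54 (adjusted p = 0.026), near ANKRD35. LIX1L-AS1 had only 0.0824 CPM in siControl progestin against 0.254 CPM in siControl untreated libraries. CNOT8 overlaps FAXDC2 on the opposite strand, and PPP1R12B, which rose by 0.95 ± 0.06, overlaps SYT2 likewise. Counting was by strand, and the part of these overlaps in the values of FAXDC2 and SYT2 was not tested. Between siCEBPA and siControl untreated cells CNOT8 differed by 0.04 ± 0.05 (edgeR, adjusted p = 0.59), where FAXDC2 differed by -2.80. Between siCEBPA and siControl cells with progestin CNOT8 was lower, by -0.24 ± 0.05 (edgeR, adjusted p = 0.00092), as was FAXDC2, by -0.93. The difference of responses, siCEBPA minus siControl, was -0.27 ± 0.07 for CNOT8 (edgeR, adjusted p = 0.025) and 1.87 for FAXDC2. PPP1R12B differed by 0.00 ± 0.06 with progestin (adjusted p = 0.99), where SYT2 differed by 1.303. With ICRF, PPP1R12B rose by 0.65 ± 0.06 and CNOT8 by 1.10 ± 0.04. The difference of responses, ICRF minus siControl, was -0.29 ± 0.08 for PPP1R12B (edgeR, adjusted p = 0.0035) and -1.10 for SYT2. That difference was -0.16 ± 0.06 for CNOT8 (edgeR, adjusted p = 0.034) and 1.35 for FAXDC2.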

How the data were processed

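RNA-seq of 12 T47D libraries was used, in 6 groups of 2 read from the sample titles. The deposited values are raw counts of read pairs per gene, made by the authors with featureCounts 1.5.1 in paired, reverse-strand mode on GENCODE 24 genes and hg38, per the file headers, from STAR alignments. Trimmomatic is also named in the submitters' processing notes, without a version. The headers show no setting for multi-mapping reads. Symbols were found for 41209 of 60554 genes, which held 99.6% of counts.

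Genes were filtered with filterByExpr, scaled with TMM and tested with edgeR 4.0.16 in R 4.3.3 (glmQLFit robust, glmQLFTest), with Benjamini-Hochberg adjustment over all tested genes and a threshold of 0.05. The 8 siRNA libraries (18351 genes), the 4 ICRF libraries (18556) and all 12 (19003) were fitted separately. Standard errors were the log2 change divided by the root of F, and intervals of a difference are the estimate with normal 95% limits. Such limits are narrower than those of the F test and are not adjusted for the number of genes. An interval can therefore leave out 0 where a gene was not called. Levels are TMM-scaled CPM computed here over all 12 libraries. Ratio intervals are exact at 95% and, like all counting limits, cover counting error only.

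Replicates of a group had Pearson r of log2 CPM from 0.9983 to 0.9991 and a mean chi-square per gene from 4.25 to 12.8, above counting noise, so no library was taken as a copy of another. Alternatives were other scalings, no filter, DESeq2 1.42.0, a replicate block, all libraries in a single fit, and each library left out. The fits were tested on simulated data. There the changed genes had higher untreated levels than SYT2, APLN, CAVIN2, ANKRD35 and MAP7D2 in siControl cells, and smaller changes than their rises. That test therefore does not cover these genes.

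The members, family lists and markers were chosen with earlier results of these data known. Relatives named are those with a called siControl change of at least 2-fold and at least 1 CPM in a siControl group, up to 3 per family. Also named are the 2 genes most like each member and the 5 largest other rises among genes with a symbol that had at most 1 CPM in siControl untreated and at least 1 CPM in siControl progestin libraries. CAVIN1, CAVIN3, CAVIN4, CAV1, CAV2, CAV3, RASD1, CHRM1, CHRM3, EHD2, EHD4, PACSIN3, MSMO1, SC5D, FA2H, AGMO, SYT11 and APELA, with the neighbours CNOT8, PPP1R12B and LIX1L-AS1, were added after their values were seen.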

Additional observations from a re-analysis of the deposited data

Results flagged for a closer look

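The genes below are those of the 10 whose progestin response differed between conditions by a test of the difference itself (edgeR, adjusted p under 0.05, 2 libraries per group). Both sides of each difference are progestin rises, for which the genes were chosen, so these tests are not independent of the choice. Between siCEBPA and siControl cells, the response of the GTPase gene RASD2 differed by 1.74 on the log2 scale, that of FAXDC2 by 1.87 and that of the receptor gene CHRM4 by 1.67, each larger with siCEBPA. Between ICRF and siControl cells, the response of ZDHHC14 differed by -2.51, of RASD2 by -1.63, of APLN by -1.51, of CAVIN2 by -1.45, of ANKRD35 by -1.31 and of CHRM4 by -0.72, each smaller with ICRF, and that of FAXDC2 by 1.35, larger with ICRF. RASD2 and CHRM4 therefore departed from siControl in opposite directions in these comparisons, which share the siControl libraries. RASD2 had 25.1 CPM in siCEBPA progestin, 1.59 CPM in ICRF progestin and 12.8 CPM in siControl progestin libraries on average. FAXDC2 departed from siControl in the same direction in both, and its untreated mean was 0.130 CPM with siCEBPA, 0.180 CPM with ICRF and 0.892 CPM with siControl. The libraries on which APLN, CAVIN2, ANKRD35, CHRM4 and FAXDC2 rest are given with the results.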

How the results depend on the processing

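The counts of the 10 genes called were 3 in untreated and 10 in progestin-treated knockdown cells, 3 for the difference of responses with siCEBPA and 7 with ICRF. They stayed at those values under other scalings, no filter and the replicate block, and under DESeq2 except for 8 with ICRF. With each library left out they ranged from 2 to 3, 9 to 10, 2 to 4 and 5 to 8. Estimates that changed sign were all uncalled: ZDHHC14 in untreated knockdown cells (0.018 with upper quartile scaling, 0.071 without scaling, and -0.36 to 0.17 with each library left out, against -0.03), ABTB3 there (-0.059 to 0.12 with each library left out), CHRM4 there (-0.29 to 0.47), CAVIN2 for the difference with siCEBPA (-0.066 to 0.29) and MAP7D2 for that with ICRF (-0.98 to 0.28); the cause was not tested. Of all genes, 1329 were called for the difference of responses with siCEBPA, 692 without siControl progestin replicate 1, 779 without replicate 2 and 2271 with the replicate block. The labels pair no libraries beyond a shared number, and deviations of same-numbered libraries correlated at -0.15 to 0.27; the replicate block left the count of the 10 genes called at 3, 10, 3 and 7. Counts of 1 to 27 per untreated ICRF library limit SYT2, CAVIN2, APLN, FAXDC2 and MAP7D2 with ICRF most. FAXDC2 had 13 and 25 counts there, and 5 and 12 counts in siCEBPA untreated libraries.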

Other observations

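RPS6KA3, a kinase gene 33.0 kb from MAP7D2, had 0 to 5 counts in each of the 12 libraries.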
